A study of Rattus with 18 samples.

Results

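The comparison sets glomeruli taken 5 days after an injection of anti-Thy1 antibody against glomeruli taken 4 days after it. Its members are the 3 arrays titled for a kill at day 5 (replicates 2, 4 and 5) and the 3 titled for a kill at day 4 (replicates 1, 2 and 3), which are 6 of the 18 single-colour Agilent arrays of a rat time course. All animals were rats of strain SD weighing 200 g. The antibody groups of days 1 to 5 received the anti-Thy1 antibody, and the control group, day 0, received saline instead. Each time point drew on 6 rats, with 3 glomeruli taken from every rat, per the labels. Which rats lie behind an array is not given in the sources used here. The p-values therefore cover only how far the 3 arrays of one day lie apart, pooled over all 6 days, and that distance may be technical in part. A wide spread on another day thus also raises the error of this contrast. Age and sex are not given there either. No hour of killing is given.

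Anti-Thy1 nephritis is a model of mesangial injury and repair in the rat. Thy1 is a surface protein of rat mesangial cells, which anchor the glomerular capillaries and can contract. The antibody and complement lyse these cells, monocytes enter the tuft, and surviving mesangial cells then divide, take on smooth muscle proteins and lay down matrix before the lesion resolves. The days compared here fall in that proliferative phase, and the comparison asks which transcripts differed within it from 1 day to the next.

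Values are log2 signals after subtraction of the array's 75th percentile, so that 0 is that percentile and a step of 1 is a doubling. Each day has n = 3 arrays, which sets the precision. The day 5 arrays had 26084 to 27647 probes well above background, against 26683 to 27273 on the day 4 arrays. With limma, 643 of 23183 genes and transcripts (2.77%) differed between days 5 and 4 at an adjusted p (Benjamini-Hochberg) under 0.05. Of these, 165 (0.712%) were higher on day 5 and 478 (2.06%) were lower. After scaling to 12 reference genes the counts were 372 higher and 385 lower, so that the share of higher genes was 49.14% in place of 25.66%. Podocyte, mesangial and glomerular endothelial markers were well above background on nearly all arrays, which fits the tissue label glomerulus. Of the podocyte list, 22 of 23 tested genes were so on every day 5 array and 23 on every day 4 array. All 18 proximal tubule markers and all 15 markers of the loop, distal tubule and collecting duct were well above background on all 6 arrays as well.

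The days compared were scanned apart: day 5 with days 0, 1 and 3 on scan day 1, and day 4 with day 2 on scan day 2. Scan day and experimental day cannot be told apart in this contrast. The 3 day 5 arrays shared slide 3 with day 3 replicate 4, while day 4 replicate 1 lay on slide 4 with the day 2 arrays and day 4 replicates 2 and 3 on slide 5. In 342 of the 643 genes (53.188%, against 7.337% of all genes), all day 2 arrays lay on the day 4 side of every array of days 1 and 3. In 518 (80.56%, against 47.789% of all genes), day 3 replicate 4 lay on the day 5 side of the other day 3 arrays. Neither held for 93 genes, 43 higher and 50 lower on day 5. With default normexp background correction, whose fit failed on day 5 replicate 5, Rps26 alone of the genes tested passed. Within scan day 1, day 5 differed from day 3 in 2 genes (0.00863%), and within scan day 2, day 4 differed from day 2 in 23 (0.0992%).

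A set of 5 genes of fatty acid oxidation and ketone synthesis was lower on day 5. Of 28 such genes, all tested, 5 fell and 0 rose (17.9% called, against 2.77% of all genes), 26 had an estimate below 0, and the median change was -0.76, against 0.02 over all genes. Among the 5 were Fabp1, Eci1, Acot2 and Etfdh. The list covers the mitochondrial and peroxisomal breakdown of fatty acids, and many of its genes are known targets of the nuclear receptor PPAR alpha, whose activity in the kidney is known mostly from the proximal tubule. The mean of the list, relative to day 0, was -1.13, -1.23 and -1.59 on the day 5 arrays, against -0.11, -0.46 and -0.27 on the day 4 arrays. The groups did not overlap.

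Eci1, an isomerase that prepares unsaturated fatty acids for beta-oxidation, had 2.95, 3.21 and 2.37 on day 5, against 5.46, 5.06 and 5.53 on day 4, and was 5.69-fold lower (-2.51 ± 0.56, limma adjusted p = 0.0271). Acot2, a mitochondrial acyl-CoA thioesterase, had 2.27, 2.25 and 1.71 on day 5, against 3.94, 3.24 and 3.53 on day 4 (-1.49 ± 0.38, 0.0471). Etfdh, which passes electrons from fatty acid dehydrogenases to ubiquinone, had 2.39, 2.44 and 1.76 on day 5, against 3.62, 3.08 and 3.23 on day 4 (-1.12 ± 0.26, 0.0351). In each of these the highest day 5 array lay below the lowest day 4 array. The days were likewise free of overlap in 641 of the 643 genes called, and in 22.9% of all genes. Acot2 alone of the 28 genes had all day 2 arrays above every array of days 1 and 3. Each call was lost when any 1 of the 6 arrays was left out. The changes then lay between -2.69 and -2.27 for Eci1 (adjusted p between 0.0642 and 0.102), between -1.66 and -1.31 for Acot2 (0.081 to 0.149), and between -1.24 and -0.90 for Etfdh (0.0631 to 0.125).

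Day 3 split in these genes. Eci1 stood at 2.13 on day 3 replicate 2, against 5.09 and 5.23 on day 3 replicates 3 and 4. Replicates 2 and 3 shared slide 2 and their scan day, and replicate 4 shared slide 3 with all day 5 arrays. Replicates 2 and 3 thus lay about as far apart as days 5 and 4, on 1 slide and within 1 scan day. That split rests on 1 low array, and the part of slide or scan day in the contrast was not tested. The list as a whole showed the same split, at -1.75 on day 3 replicate 2, against -0.07 and 0.22 on replicates 3 and 4. The fit pools the spread of all days, so this split also enters the error of the contrast. In Eci1 the SD was 1.75 on day 3, against 0.43 on day 5 and 0.26 on day 4. In Eci1 day 4 lay near the controls, at 4.99, 4.50 and 4.83, and day 5 lay near day 1, at 2.84, 2.88 and 2.77. Day 2, scanned with day 4, stood at 5.12, 5.33 and 5.42. The low arrays were thus all of scan day 1, as were the controls and the high day 3 arrays.

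Fabp1, the liver-type fatty acid binding protein, was not well above background on any day 5 array, where its values were -7.02, -7.06 and -7.45. On day 4 it was measured at -4.10, -3.84 and -2.98 and passed the threshold (limma adjusted p = 0.00253). Since only a bound exists for day 5, Fabp1 was at least 2.61-fold lower there, with the dim arrays set to the lowest signal well above background. With the repaired normexp background correction its change was -0.27. That correction adds an offset of 50 to every signal before the log, which shrinks the changes of dim probes. Its value is therefore no like-for-like check of the size.

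Of the 23 members that did not pass, Ehhadh, a bifunctional enzyme of peroxisomal oxidation, had 1.35, 1.02 and 0.07 on day 5, against 2.86, 2.32 and 3.07 on day 4 (-1.94 ± 0.63, limma adjusted p = 0.124). Cyp4a1, a fatty acid omega-hydroxylase, had a change of -1.46 ± 0.60 (0.241). Cpt1a, which carries fatty acids into mitochondria, had one of -0.28 ± 0.34 (0.78), and Ppara itself one of 0.57 ± 0.37 (0.528). Angptl4, another known target of PPAR alpha, did not follow the others: it had -2.7, -2.37 and -2.44 on day 5, against -2.63, -2.23 and -2.26 on day 4, so the groups overlapped (-0.13 ± 0.69, 0.959). Against day 0 its log2 change was -2.89 (0.00493) on day 5 and -2.76 (0.00445) on day 4. These comparisons share the 3 control arrays and called 44.3% of all genes on day 5 and 52.3% on day 4. The errors given for Ehhadh and Angptl4 also hold their spread on day 3. Their SD was 1.82 and 2.16 there, against at most 0.67 on days 5 and 4. The plot of fatty acid genes by day shows Angptl4 low on day 4, when Eci1, Acot2 and Vnn1 lay near the level of the controls.

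**Figure D1:**
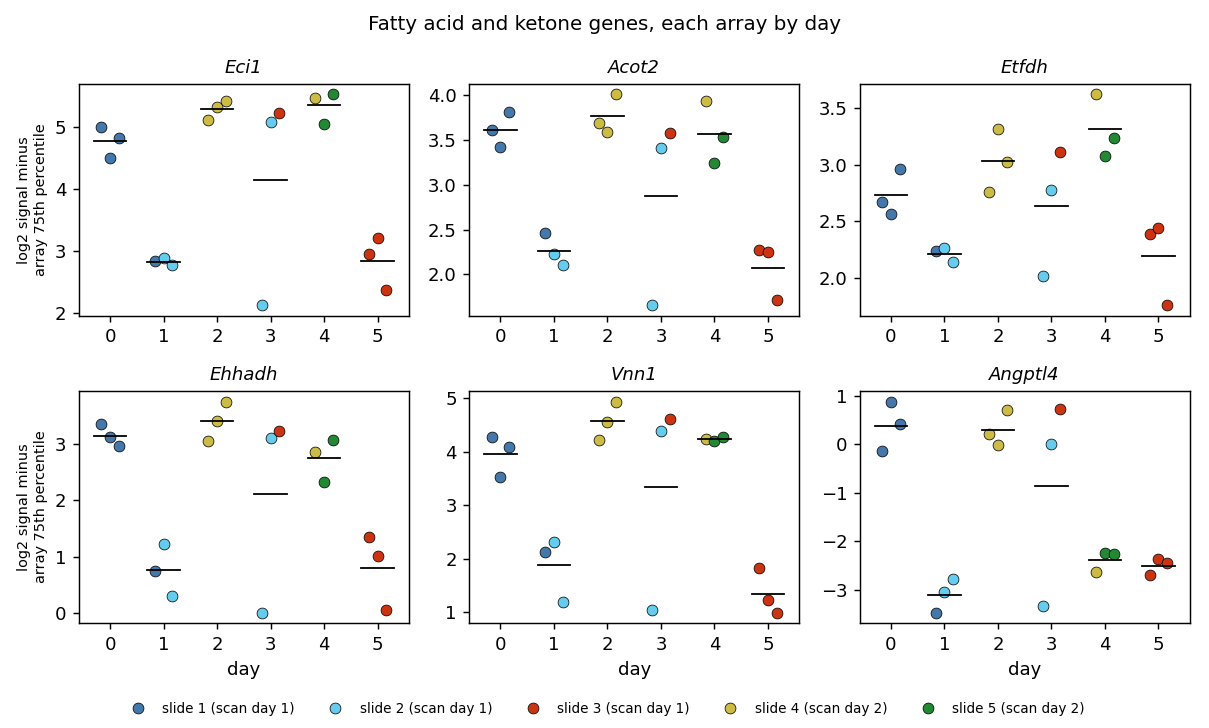
Log2 signal minus the array's 75th percentile (vertical axis) of 6 genes on each of the 18 arrays, by day (horizontal axis). Points are arrays coloured by slide and bars are the mean of the 3 arrays of a day. Eci1 stood at 2.37 to 3.21 on day 5, against 5.06 to 5.53 on day 4, while day 3 replicate 4, on the slide of day 5, stood at 5.23.

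Vnn1, a pantetheinase of tubular epithelium and a PPAR alpha target in mouse, was among the 12 largest falls with a symbol. It had 1.83, 1.22 and 1.00 on day 5, against 4.24, 4.20 and 4.28 on day 4, and was 7.41-fold lower (-2.89 ± 0.67, limma adjusted p = 0.0314, and between 0.07 and 0.11 when any 1 array was left out, with changes between -3.13 and -2.71). Gpx2, a glutathione peroxidase of epithelia that was picked after its values were seen, had -3.76, -2.14 and -3.89 on day 5, against -0.93, -0.89 and -0.08 on day 4 (-2.63 ± 0.65, 0.0433). Its call was kept without day 5 replicate 4 and lost without any other array of the 6, with adjusted p between 0.0864 and 0.166. Day 3 split in Vnn1 as in Eci1, with 1.04 on replicate 2, against 4.40 and 4.62 on replicates 3 and 4.

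Proximal tubule markers were examined beside these genes. Of 18, 0 passed the threshold, 16 had an estimate below 0, and the median change was -0.31. Their mean level relative to day 0 was 0.28, -0.07 and -0.80 on day 5, against 0.61, -0.16 and 0.25 on day 4, so the groups overlapped where those of the fatty acid list did not. Pck1, a gluconeogenic enzyme of the proximal tubule, had 5.14, 3.94 and 3.23 on day 5, against 6.59, 5.37 and 6.53 on day 4 (-2.06 ± 0.57, limma adjusted p = 0.0711). Fewer cells of a type and less RNA per cell cannot be told apart in such bulk samples, and the part of tubular RNA in the fall was not tested.

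Ccl20, the chemokine that attracts cells bearing CCR6, fell on day 5 (probe at chr9:82443347-82443406 in rn4). Its log2 signal was -3.76, -3.83 and -3.03 on day 5, against 1.52, 0.45 and 0.75 on day 4. It was 21.8-fold lower on day 5 (-4.45 ± 0.57, limma adjusted p = 0.00179). The arrays of day 5 lay near the controls, at -3.61, -4.24 and -3.95. Day 2, scanned with day 4, stood at -1.74, -0.32 and -0.88, below all day 4 arrays, and day 3 replicate 4, on the slide of day 5, stood at -0.64, above all day 5 arrays. The call was kept when any 1 array was left out. Of 20 tested chemokines, cytokines and adhesion molecules, Ccl20 alone passed (5% called, against 2.77% of all genes), and the list's median was 0.09. Ccl2, which attracts monocytes, had 0.53, 1.07 and 2.04 on day 5, against 2.53, 0.96 and 0.75 on day 4 (-0.20 ± 0.47, 0.898).

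Grem1, a secreted antagonist of bone morphogenetic proteins that was picked after its values were seen, had 1.69, 1.31 and 1.53 on day 5, against 3.33, 2.11 and 2.54 on day 4. The arrays of the days did not overlap, but the change of -1.15 ± 0.48 did not pass (limma adjusted p = 0.261). Among all genes, 22.9% had arrays of the 2 days that did not overlap (11.5% higher and 11.4% lower on day 5). Against day 0, Grem1 was higher by 2.82 on day 5 and by 3.97 on day 4, with the controls shared.

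Ciita, the master transactivator of MHC class II genes, had -5.73, -5.71 and -5.20 on day 5, where no array was well above background, against -3.08, -3.41 and -3.22 on day 4. It was at least 3.37-fold lower on day 5 and passed the threshold (limma adjusted p = 0.00187), also without any 1 array. Day 3 replicate 4, on the slide of day 5, stood at -4.84, against -4.34 and -4.57 on the other day 3 arrays. All 6 tested genes of the MHC class II list had an estimate below 0, with a median of -0.56. The other 5 did not pass (16.7% of the list called, against 2.77% of all genes). Cd74, the invariant chain, had 4.81, 4.06 and 5.64 on day 5, against 5.28, 5.11 and 5.89 on day 4 (-0.59 ± 0.33, 0.445). Ifit1, an antiviral protein of the interferon response, had -4.69, -7.18 and -7.56 on day 5, against -3.76, -2.37 and -2.35 on day 4, and passed the threshold with a fitted log2 change of -3.65 ± 0.70 (0.0122). It was well above background on 1 of 3 day 5 arrays, so the size of this change rests on dim values. Its call was lost without day 5 replicate 4 (-3.30, 0.0638) or day 4 replicate 2 (-3.42, 0.0542) or 3 (-3.41, 0.0611). Of the other 25 genes of the interferon list none passed (3.85% of the list called, against 2.77% of all genes), and the list's median was 0.11. The repaired normexp correction gave -0.25 for Ciita and -0.66 for Ifit1, neither past the threshold. Its offset shrinks the changes of probes as dim as these, so the sizes are not like for like.

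Of the genes of the circadian clock, Nr1d1 rose and Nfil3 fell. Of 15 tested, these 2 passed (13.3% called, against 2.77% of all genes), with a median of 0.31. Nr1d1 encodes REV-ERB alpha, a repressor whose known targets include Bmal1 (also called Arntl) and Nfil3. Nr1d1 had -1.87, -0.78 and -3.81 on day 5, against -4.76, -4.97 and -4.89 on day 4 (2.72 ± 0.61, limma adjusted p = 0.0272), and was well above background on 1 of 3 day 4 arrays. Nfil3, a repressor of clock output genes, had -1.63, -2.03 and -1.29 on day 5, against -0.40, -0.65 and -0.56 on day 4 (-1.11 ± 0.24, 0.0254). Both calls were kept without day 5 replicate 5 and lost without any other array of the 6, with adjusted p between 0.0698 and 0.121 for Nr1d1 and between 0.0637 and 0.122 for Nfil3.

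Other clock genes are given after their values were seen. Nr1d2, the paralogue of Nr1d1, had -2.16, -1.29 and -3.46 on day 5, against -3.93, -4.57 and -4.36 on day 4 (1.98 ± 0.51, limma adjusted p = 0.0503). Per3, of the period family, had -3.43, -2.27 and -3.43 on day 5, against -5.50, -4.01 and -4.81 on day 4 (1.73 ± 0.46, 0.0589). Cry1, a cryptochrome of the repressor arm, had -0.25, -0.56 and 0.11 on day 5, against 1.22, 0.73 and 0.99 on day 4 (-1.22 ± 0.32, 0.0548). Bmal1, the activator at the core of the clock, had 0.97, 0.50 and 1.31 on day 5, against 2.01, 1.82 and 1.70 on day 4 (-0.92 ± 0.25, 0.0674). None of these 4 passed. Their arrays did not overlap between the days, as in 22.9% of all genes. In each of these 4, day 3 replicate 4 lay on the day 5 side of the other day 3 arrays, as in 47.789% of all genes. Nr1d2 and Per3 were well above background on 2 of 3 day 4 arrays. Per2, another period gene, had -1.87, 0.12 and -0.83 on day 5, against 0.76, -0.13 and 0.29 on day 4, and the groups overlapped (-1.16 ± 0.43, 0.185). The output gene Dbp had 1.40, 3.17 and -0.27 on day 5, against 0.71, -0.10 and 0.30 on day 4, and the groups overlapped (1.13 ± 0.62, 0.419).

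**Figure D2:**
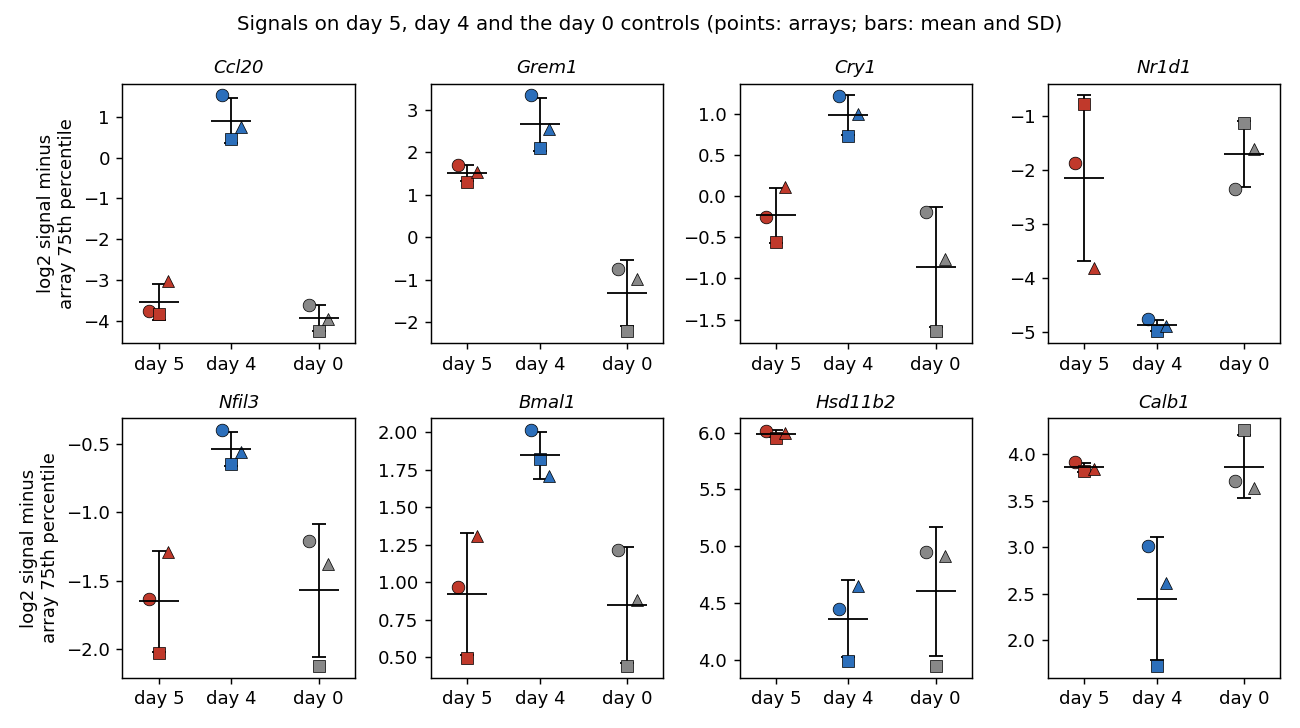
Log2 signal minus the array's 75th percentile (vertical axis) of 8 genes on the arrays of day 5, day 4 and day 0 (horizontal axis), with the points as arrays and the bars as mean and SD. Ccl20 lay between -3.83 and -3.03 on day 5, against 0.45 to 1.52 on day 4. Hsd11b2 lay between 5.96 and 6.02 on day 5, against 3.99 to 4.65 on day 4.

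Among genes of the distal nephron and collecting duct, Calb1 and Hsd11b2 rose. Of 15 listed genes tested, 1 rose and 0 fell (6.67% called, against 2.77% of all genes), 10 had an estimate above 0, and the median was 0.53. The level of the list relative to day 0 was 0.26, 0.20 and 0.12 on day 5, against 0.04, -0.66 and -0.19 on day 4. Hsd11b2, which inactivates glucocorticoids in cells that respond to aldosterone, was picked after its values were seen and is not in the list. It had 6.02, 5.96 and 6.0 on day 5, against 4.45, 3.99 and 4.65 on day 4 (1.63 ± 0.37, limma adjusted p = 0.0276). Its call was lost when any 1 array was left out, with adjusted p between 0.0587 and 0.111 and changes between 1.44 and 1.77. Day 2, scanned with day 4, stood at 4.34, 4.86 and 4.66, and day 3 replicate 4, on the slide of day 5, at 4.33. Day 1, scanned with day 5, stood at 5.76, 6.05 and 4.72, so it reached the day 5 level on some arrays. Day 3 replicates 2 and 3 stood at 5.43 and 4.39.

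Calb1, a calcium-binding protein of the distal convoluted tubule, was the listed gene that passed, with 3.91, 3.83 and 3.84 on day 5, against 3.01, 1.72 and 2.61 on day 4 (1.41 ± 0.33, limma adjusted p = 0.0359). Its 4 probes gave changes from -0.65 to 1.41, and their mean gave 0.31, so the direction rests on the chosen probe. The call was kept without day 4 replicate 1 and lost without any other array of the 6 (0.0655 to 0.14). Scnn1b, a subunit of the epithelial sodium channel, had 3.60, 3.17 and 3.55 on day 5, against 2.28, 2.08 and 2.45 on day 4, and did not pass (1.17 ± 0.38, 0.128). Umod, the marker of the thick ascending limb, had 8.71, 8.76 and 8.43 on day 5, against 8.54, 8.15 and 8.58 on day 4, and the groups overlapped.

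In several contractile and matrix genes, such as Tagln and Col1a1, the arrays of 1 day lay far apart. The days overlapped in most of the listed genes, and among all genes only 22.9% had no overlap. Actg2, the enteric smooth muscle actin, was the listed contractile gene that passed, 1 of 10 tested (10% called, against 2.77% of all genes, list median -0.61). It had 2.39, 2.77 and 3.21 on day 5, against 3.93, 4.31 and 3.88 on day 4 (-1.25 ± 0.28, limma adjusted p = 0.0261), and day 5 lay near the controls, at 2.86, 2.37 and 2.55. Day 3 replicate 4, on the slide of day 5, stood at 3.0, against 4.02 and 3.92 on the other day 3 arrays. Its call was kept without day 5 replicate 5 and lost without any other array of the 6, with changes between -1.33 and -1.05 (0.0626 to 0.123). Tagln, an actin-binding protein of smooth muscle and myofibroblasts, had 0.80, 1.45 and 4.75 on day 5, against 1.10, 4.56 and 4.41 on day 4 (-1.02 ± 0.88, 0.652). Acta2, the smooth muscle actin used to mark activated mesangial cells, was not among the genes tested.

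Of 23 collagens and collagen enzymes, 0 passed, and their median was -0.22. Col1a1, the fibrillar collagen chain, had 0.44, 1.23 and 4.13 on day 5, against 1.57, 4.43 and 5.75 on day 4 (-1.98 ± 0.99, limma adjusted p = 0.363), and its 3 probes gave -1.98 to -0.30. Col4a1, a chain of the basement membrane collagen, had 4.22, 4.21 and 5.35 on day 5, against 4.16, 5.06 and 4.98 on day 4 (-0.14 ± 0.30, 0.884). Fn1, fibronectin, had 2.67, 2.56 and 4.46 on day 5, against 2.59, 4.25 and 3.93 on day 4 (-0.36 ± 0.47, 0.789). In all of these day 5 replicate 5 lay beside day 4 replicates 2 and 3. Adamts1, a protease that cleaves versican, was the 1 of 17 listed proteases and inhibitors that fell (5.88% called, against 2.77% of all genes). It had -2.26, -3.19 and -2.06 on day 5, against -0.88, -0.81 and -1.15 on day 4 (-1.55 ± 0.34, 0.0243). Its call was kept without day 5 replicate 5 and lost without any other array of the 6 (0.0578 to 0.116). Day 3 replicate 4, on the slide of day 5, stood at -2.47, against -2.20 and -2.40 on the other day 3 arrays. Tgfb1, the cytokine that drives matrix synthesis, did not pass (0.55 ± 0.38, 0.553).

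The same arrays stood apart in genes of division and of macrophages. The macrophage list, relative to day 0, was at 0.31, -0.01 and 2.45 on day 5, against -0.05, 1.92 and 1.70 on day 4, and 0 of its 23 tested genes passed. Mitosis genes were at -0.64, 0.47 and 2.55 on day 5, against -0.08, 2.29 and 2.32 on day 4. None of the 24 passed, 23 had an estimate below 0, and the median was -0.67. Day 5 replicates 2 and 4 and day 4 replicate 1 lay near the controls in both lists, and the other 3 arrays lay well above them. Both days thus held arrays of both kinds, and the levels of both lists overlapped between the days.

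Mki67, expressed by cycling cells, had -1.48, -0.66 and 1.63 on day 5, against 0.04, 1.77 and 2.03 on day 4 (-1.45 ± 0.68, limma adjusted p = 0.325). It passed when day 5 replicate 5 was left out (-2.35, 0.0457). Trem2, a receptor of lipid-handling macrophages, had -2.92, -2.25 and 1.76 on day 5, against -1.24, 2.15 and 0.82 on day 4 (-1.71 ± 0.98, 0.45), and it too passed without day 5 replicate 5 (-3.16, 0.0376). Cd68, a lysosomal protein of macrophages, had 0.86, 0.32 and 2.54 on day 5, against 0.05, 1.77 and 1.77 on day 4 (0.04 ± 0.56, 0.984). Replicate 5 of day 5 correlated more closely with day 4 replicates 2 and 3 (Pearson r of 0.9825 and 0.9788 across 21735 probes) than with day 5 replicates 2 and 4 (0.9698 and 0.9673).

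In the fatty acid list the arrays split by day instead. Within each day the array highest in macrophage genes was the lowest in the fatty acid list. On day 5 this was replicate 5, at 2.45 for macrophage genes and -1.59 for the fatty acid list. On day 4 it was replicate 2, at 1.92 and -0.46. Day 4 replicate 1, at -0.05 for macrophage genes, had the highest fatty acid level of the 6 arrays, at -0.11. Within each of the 2 days the order of the arrays was that of the proximal tubule list. That list stood at 0.28, -0.07 and -0.80 on day 5, against 0.61, -0.16 and 0.25 on day 4. A part of tubular content in this order was not tested. With the macrophage level of each array as a covariate, an alternative added after seeing the data, Eci1, Acot2, Etfdh and Ccl20 kept their calls. So did nearly every named gene with a call (37 of 38 in all), and 782 genes passed. Since macrophage levels overlapped between the days, this covariate could change the contrast little. It does not show whether cell content had a part in the fall.

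**Figure D3:**
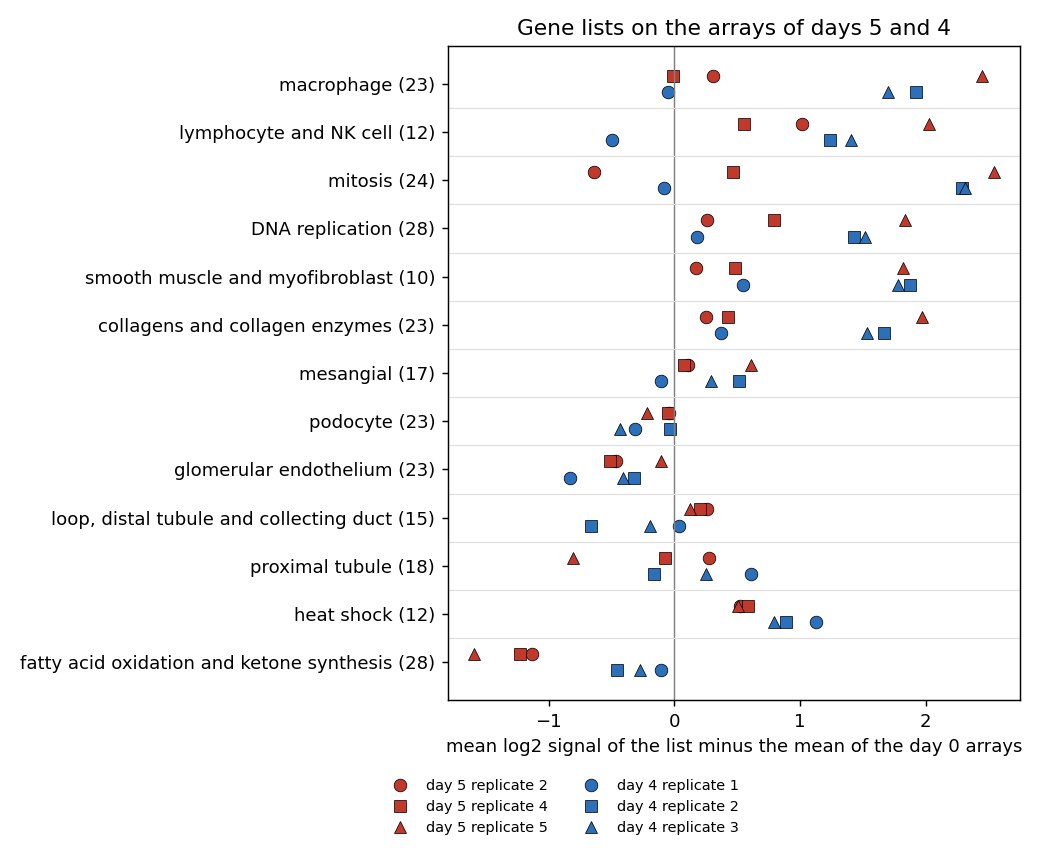
Mean log2 signal of 13 gene lists minus their mean on the day 0 arrays (horizontal axis), with 1 row per list, the number of tested genes in brackets, and day 5 arrays drawn above day 4 arrays. The fatty acid list runs from -1.59 to -1.13 on day 5, against -0.46 to -0.11 on day 4, while macrophage and mitosis genes spread widely within each day.

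Lymphocyte and neutrophil markers had estimates above 0 throughout, and none passed. All 12 tested lymphocyte and NK cell genes lay above 0 (median 0.47), with levels of 1.01, 0.55 and 2.03 on day 5, against -0.49, 1.24 and 1.40 on day 4. The 4 tested neutrophil genes had a median of 1.20. S100a8, a calcium-binding protein of neutrophils, had 1.36, 0.68 and 0.52 on day 5, against -1.25, -1.01 and 0.87 on day 4 (1.32 ± 0.57, limma adjusted p = 0.274). Its partner S100a9 had 2.56, 1.46 and 1.56 on day 5, against -0.32, -0.03 and 1.94 on day 4 (1.33 ± 0.58, 0.28). In both, day 4 replicate 3 lay with the day 5 arrays.

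Among resident cells no listed gene passed. Of 17 mesangial markers 0 passed and the median was -0.0019. Thy1, the target of the antibody, had -1.23, -1.18 and 0.42 on day 5, against -0.89, 1.55 and 0.17 on day 4 (-0.94 ± 0.59, limma adjusted p = 0.498). Itga8, a mesangial integrin chain, had -2.08, -2.54 and -2.39 on day 5, against -3.17, -2.38 and -2.95 on day 4 (0.50 ± 0.48, 0.694), and Pdgfrb, the receptor for the main mesangial mitogen, had a change of -0.06 ± 0.39 (0.965). Against day 0, Itga8 had a log2 change of -1.30 (0.0384) on day 5 and of -1.80 (0.0061) on day 4, with the controls shared.

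Of 23 podocyte genes 0 passed, with a median of 0.18. Podxl, the sialomucin that coats foot processes, had 7.73, 7.94 and 7.48 on day 5, against 7.07, 7.21 and 7.25 on day 4, without overlap (0.54 ± 0.17, limma adjusted p = 0.114). It passed after scaling to the reference genes (0.68, 0.0451) and after quantile normalization (0.65, 0.048). Nphs1, nephrin of the slit diaphragm, had a change of 0.43 ± 0.21 (0.344), and Synpo, synaptopodin, one of 0.44 ± 0.33 (0.59). Of 23 endothelial genes 0 passed, with a median of 0.08. Kdr, the main receptor for VEGF, had 6.81, 6.54 and 6.72 on day 5, against 5.48, 6.13 and 6.11 on day 4, also without overlap (0.78 ± 0.23, 0.0871). It passed after scaling to the reference genes (0.92, 0.0379). Pecam1, an endothelial adhesion molecule, had -1.79, -1.33 and -0.99 on day 5, against -1.52, -1.01 and -1.27 on day 4 (-0.10 ± 0.35, 0.934).

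Genes of stress and mitochondria gave scattered calls. Hsph1, a heat shock protein of the HSP110 family, had -1.57, -1.28 and -1.92 on day 5, against -0.05, -0.65 and -0.42 on day 4 (-1.22 ± 0.20, limma adjusted p = 0.00501). It was the 1 of 12 heat shock genes that fell (8.33% called, against 2.77% of all genes), 11 had an estimate below 0, and the median was -0.33. The day 2 arrays of Hsph1 lay on the side of day 4, at -1.08, -0.70 and -0.93, and its call was lost with the 6 arrays fitted alone (0.0663). Sod2, the mitochondrial superoxide dismutase, fell by 0.80 ± 0.19 on the log2 scale (0.0387, and between 0.0565 and 0.15 without any 1 array). Of 31 genes of oxidative phosphorylation 2 fell (6.45% called, against 2.77% of all genes) and the median was -0.04. Among these was Cox7c, a subunit of complex IV (-1.72 ± 0.24, 0.00253). It followed slide and scan day, and its other probe gave -0.42.

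Many of the largest changes followed the slide or the scan day. Krt72, a keratin of the hair follicle, was among the 12 largest fitted falls with a symbol. It was not well above background on day 5 (-7.09, -7.18 and -7.55), against -2.18, -2.48 and -1.75 on day 4, and was at least 7.39-fold lower (limma adjusted p = 1.94e-07). The day 2 arrays stood at -2.56, -2.97 and -2.75, and all arrays of days 0, 1 and 3, between -7.10 and -5.94. Tsg101, a component of the ESCRT machinery of endosomes, had -5.28, -4.33 and -5.06 on day 5, against -1.74, -1.65 and -1.67 on day 4 (-3.20 ± 0.40, 0.00177), and stood at -1.82, -1.73 and -1.88 on day 2. It was well above background on 2 of 3 day 5 arrays.

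Rps26, a protein of the small ribosomal subunit, had -1.96, -1.90 and -2.02 on day 5, against 2.40, 2.84 and 2.7 on day 4 (-4.61 ± 0.58, limma adjusted p = 0.00177). The day 2 arrays stood at 2.75, 2.71 and 2.44, and day 3 replicate 4, on the slide of day 5, at -3.10, against 0.12 and -0.42 on the other day 3 arrays. Of the list of 35 cytosolic ribosomal proteins, which does not hold Rps26, 0 passed. Rps26 is known to have near-identical copies in the genome, as is Rpl36al-ps5 (-3.72 ± 0.66, 0.00787). Which copies give their signal was not tested. Apol7b, of the apolipoprotein L family, followed slide and scan day in the same way (-3.38 ± 0.57, 0.00627), and was well above background on 2 of 3 day 5 arrays. Sel1l2, a relative of an adaptor for protein degradation, was measured on day 4 alone of these days and was at least 1.85-fold lower on day 5 (0.00185, and -0.16 with the repaired normexp correction, which did not pass). The offset of that correction shrinks the changes of dim probes. Day 2 stood with day 5 in Sel1l2, at -6.67, -7.01 and -6.98.

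The 12 largest rises with a symbol included Nr1d1 and the genes that follow. Tlx3, a homeobox factor of neurons, had 4.02, 3.92 and 3.41 on day 5, against 1.34, 1.02 and 1.45 on day 4 (2.51 ± 0.53, limma adjusted p = 0.0204). Day 3 replicate 4, on the slide of day 5, stood at 4.14, against 1.59 and 1.34 on the other day 3 arrays. Exosc6, a subunit of the RNA exosome, had 1.21, 1.07 and 0.88 on day 5, against -1.37, -1.46 and -1.21 on day 4 (2.40 ± 0.44, 0.00971), and 1.44 on day 3 replicate 4, against -0.61 and -0.40. Its day 2 arrays, scanned with day 4, stood at -1.04, -1.53 and -1.72, below every array of days 1 and 3. Wdfy3, a scaffold of selective autophagy, had a change of 2.23 ± 0.47 (0.0202), but its 3 probes gave changes from -0.41 to 2.23 and their mean gave 0.59. The calls of Tlx3 and Wdfy3 were kept without day 5 replicate 5 and lost without any other array of the 6 (0.0601 to 0.0858 and 0.0573 to 0.0854).

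The others were Fgf17, a fibroblast growth factor (3.58 ± 0.74, limma adjusted p = 0.0187), Ucn, the peptide urocortin (3.29 ± 0.65, 0.0145), and the transcription factors Neurog3 (2.76 ± 0.35, 0.00179) and Dlx2 (2.7 ± 0.39, 0.00302). Ccno, a cyclin of multiciliated cells (2.36 ± 0.48, 0.0171), Grin2d, a glutamate receptor subunit (2.28 ± 0.40, 0.00769), and Aff2 (2.12 ± 0.30, 0.00286) followed. On day 4, Ucn and Dlx2 were well above background on 1 of 3 arrays, and Fgf17 and Neurog3 on 2 of 3, so the sizes of these 4 changes rest in part on dim values. In these 7 genes day 3 replicate 4 also lay on the day 5 side of the other day 3 arrays. In all of them but Fgf17, the day 2 arrays lay below every array of days 1 and 3, on the side of day 4. The call of Fgf17 was lost without day 5 replicate 2 (0.0652) or 4 (0.0705) or day 4 replicate 2 (0.0827) or 3 (0.0574), that of Ucn without day 5 replicate 2 (0.0572) or 4 (0.0519) or day 4 replicate 1 (0.0554), and that of Ccno without day 5 replicate 2 (0.0777) or 4 (0.0511) or day 4 replicate 1 (0.0726). Prrt2, a synaptic protein, did not show the slide or scan-day pattern. It was at least 2.52-fold higher on day 5 (0.00883, 0.0524 without day 4 replicate 3, and 0.0801 with the repaired normexp correction), with no day 4 array well above background. The offset of that correction shrinks the changes of dim probes.

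**Figure D4:**
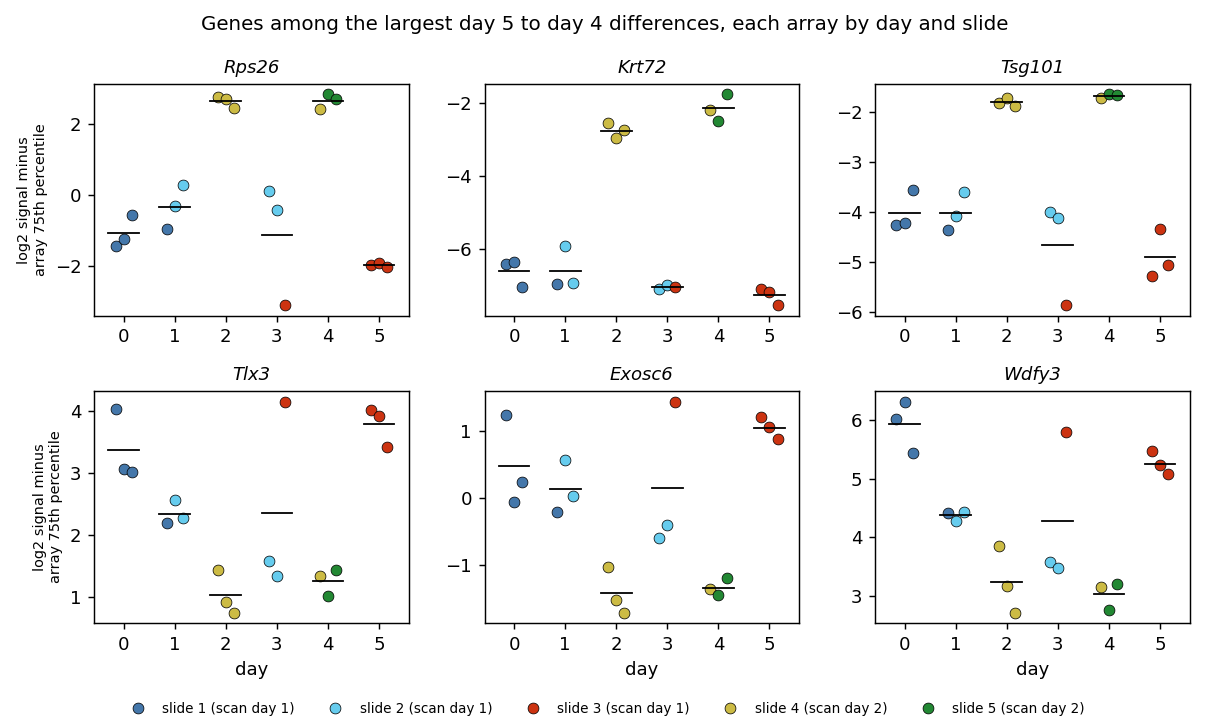
Log2 signal minus the array's 75th percentile (vertical axis) of 6 genes on each of the 18 arrays, by day (horizontal axis), with points coloured by slide and bars as means of a day. Rps26, Krt72 and Tsg101 were high on days 2 and 4, of scan day 2. Tlx3, Exosc6 and Wdfy3 were high on day 3 replicate 4, which shared the slide of day 5. Exosc6 was also low on days 2 and 4, of scan day 2.

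The changes also followed the GC content of the probes. The median probe GC content was 53.33% among genes higher on day 5 and 38.33% among those lower, against 43.33% among all genes. In the bin of lowest GC content (35% or less) the median change was -0.11, with 4.738% of genes lower and 0.241% higher on day 5. In the bin of highest GC content the median change was 0.29, with 0% lower and 8.696% higher. Removal of this trend, an alternative added after seeing the data, gave 191 genes higher and 487 lower, and the calls of Acot2 (-1.35, limma adjusted p = 0.0691) and Etfdh (-0.97, 0.0571) were lost.

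**Figure D5:**
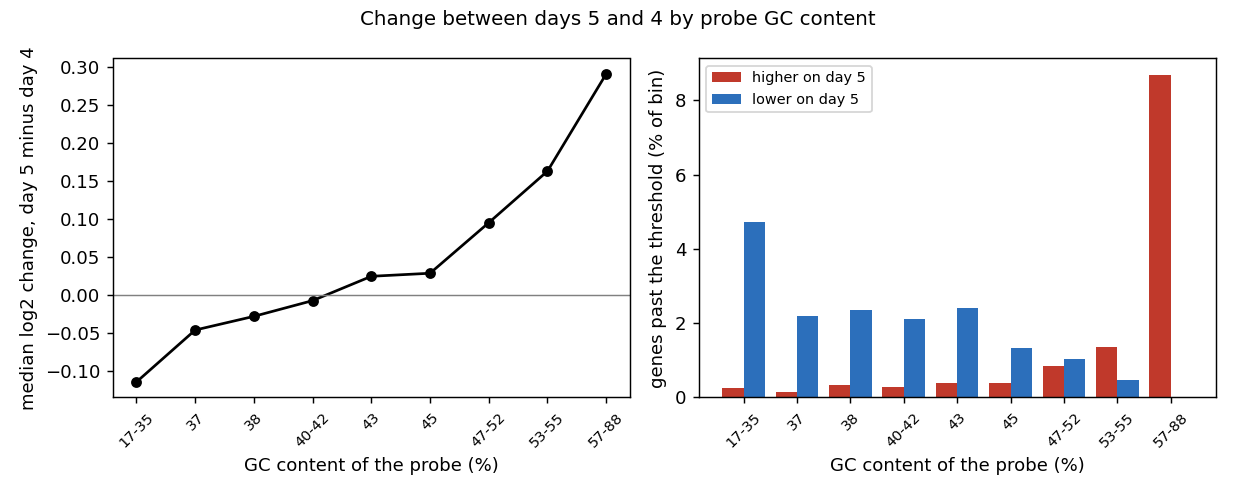
Left: median log2 change, day 5 minus day 4 (vertical axis), of genes binned by the GC content of their probe (horizontal axis). Right: share of genes in each bin that were higher or lower on day 5. The median ran from -0.11 in the lowest bin to 0.29 in the highest.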

How the data were processed

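Gene expression was measured on 18 single-colour arrays, 3 for each of days 0 to 5. Per the file headers, the authors extracted the spots with Agilent Feature Extraction 10.7.3.1, and the deposited processed intensity is background-subtracted and detrended within an array, with no scaling between arrays. The mean and background intensity deposited beside it served an alternative correction (normexp, offset 50). The offset is added to every signal before the log, in the default and the repaired form. Changes of dim probes therefore shrink towards 0 by construction. The deposited value table was not used.

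The log2 of each processed intensity was set relative to the 75th percentile of its array, taken without control spots. Outlier-flagged and control spots were dropped, and repeat spots were averaged per probe. Probes had to be well above background on all 3 arrays of at least 1 day (27833 of 41012 passed), and a gene was its probe with the highest mean (23183 genes, 12277 with a current symbol). The 75th percentile before scaling was 273.2, 251.9 and 336.1 on day 5 and 343.9, 452.4 and 385.7 on day 4, and no spot was saturated. Names were updated through the RefSeq table of rat genes. Coordinates are those of the headers (rn4), and what each probe covers within its gene was not examined.

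All 18 arrays and 6 groups were fitted with limma 3.58.1 (R 4.3.3), with the contrast day 5 minus day 4 and Benjamini-Hochberg adjustment over all genes. The code was tested on simulated data. The level of a list on an array is the mean over its tested genes. "At least" folds place a probe that stayed dim on every array of a day at the lowest signal well above background, or to its own signal where higher. Alternatives changed the background correction, scaling, filter, probe choice, samples and slide block. The named genes are the 12 largest changes in each direction with a symbol and no overlap, the called members of 39 lists (at most 6, or the 2 of smallest p where none was called) and a fixed set of 15; Gpx2, Hsd11b2, Angptl4, Ehhadh, Cyp4a1, Cpt1a, Ppara, Grem1, Cd74, Scnn1b, Umod, Nr1d2, Per3, Cry1, Bmal1, Per2 and Dbp were added after their values were seen. The members and lists were chosen with earlier results of these data known. The values of some genes that the rule names are not reported here.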

Additional observations from a re-analysis of the deposited data

How the results depend on the processing

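No paired analysis was possible, because the rats of days 5 and 4 were killed on different days. A replicate number that both days share marks no pair. The main counts were 165 genes higher and 478 lower (643 in all). Default normexp background correction left 0 higher and 1 lower (1 in all, with 3756 genes at an unadjusted p under 0.05); its fit failed on 2 arrays, day 1 replicate 1 and day 5 replicate 5, and with their parameters repaired 170 were higher and 350 lower. Scaling to the reference genes gave 372 higher. Leaving out 1 array gave between 220 and 593 genes in all, 43 to 192 higher and 166 to 401 lower. Without the genes on the scan-day side 301 remained by construction (101 higher, 200 lower), and without those on the scan-day or slide side 93 (43 higher, 50 lower). Slide as a random block (correlation -0.0291) gave 229 higher and 570 lower. Under default normexp the sign turned for Ifit1 (0.12), Fabp1 (0.51), Sel1l2 (0.64), Ciita (0.46), Podxl (-0.094), Nusap1 (0.50), Cdk6 (0.50), Rbl1 (0.82), Jund (-0.033), Vcan (0.26), Ltbp2 (0.65), Gpam (0.38), Rps2 (-0.39), Cd68 (-0.40), Nphs1 (-0.15), Pecam1 (0.22) and Angptl4 (0.55), and under the repaired form for Rbl1 (0.13), Pecam1 (0.048) and Angptl4 (0.093). Scaling to the reference genes turned Pdgfrb (0.082), Col4a1 (0.006), Pecam1 (0.042) and Angptl4 (0.014). The mean of all probes turned Col4a1 (0.054), and the macrophage covariate Pdgfrb (0.069). Among uncalled genes, leaving out 1 array turned the sign in some cases: Pdgfrb lay between -0.45 and 0.23, Col4a1 between -0.52 and 0.054, Pecam1 between -0.29 and 0.11, Ccl2 between -0.61 and 0.36, Cd68 between -0.61 and 0.50, and Lcn2 between -1.62 and 0.38. The cause was not tested. Of 38 named genes with a call, 38 kept it with slide as a block, 34 after scaling to the reference genes, 32 after quantile normalization and 20 to 29 when 1 array was left out. With the 6 arrays fitted alone, 28 kept it, and Nr1d1, Ifit1, Calb1, Hsph1, Actg2, Adamts1, Etfdh, Nfil3, Sod2 and Gpx2 lost it (adjusted p between 0.0663 and 0.151). Signal over background limits Fabp1, Ciita, Krt72, Sel1l2 and Prrt2 to bounds. The sizes for Ifit1, Ucn, Dlx2, Fgf17, Neurog3, Nr1d1, Nr1d2, Per3, Apol7b and Tsg101 rest in part on dim arrays.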

Other observations

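In a further set of lists no gene passed the threshold between days 5 and 4. Genes of cholesterol synthesis and uptake (0 of 24 called) had a median change of 0.11, those of fatty acid synthesis (0 of 9) of 0.0043, those of glycolysis and hypoxia (0 of 20) of -0.15, and glucocorticoid-responsive genes (0 of 10) of -0.0011. Acly, which makes cytosolic acetyl-CoA for lipid synthesis, had 3.99, 4.24 and 3.61 on day 5, against 3.1, 3.33 and 3.54 on day 4 (0.62 ± 0.22, limma adjusted p = 0.155). Ldha, lactate dehydrogenase A, had a change of -0.61 ± 0.20 (0.129). It passed without day 5 replicate 5 (-0.87, 0.0214).

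Complement genes (0 of 16) had a median of -0.03. C6, a component of the membrane attack complex that the Thy1 model depends on, had 0.33, -0.58 and -1.25 on day 5, against -2.40, -1.39 and -2.85 on day 4, without overlap (1.71 ± 0.48, limma adjusted p = 0.0713). It passed without day 5 replicate 5 (2.09, 0.0431) and with the repaired normexp correction (1.15, 0.0454). C3, the central complement protein, had a change of 0.98 ± 0.35 (0.176). Among growth factors and receptors (0 of 34, median 0.03), Inhbb, a subunit of activin B, had 3.96, 3.83 and 3.74 on day 5, against 2.71, 2.31 and 3.26 on day 4 (1.08 ± 0.31, 0.0782). Day 2 and slide followed the contrast in C6 and Inhbb as in many called genes. Sdf2l1, a partner of endoplasmic reticulum chaperones, had 2.24, 2.24 and 2.57 on day 5, against 1.70, 1.62 and 1.69 on day 4 (0.68 ± 0.19, 0.068), and its list (0 of 19) had a median of -0.05.

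The other lists without a call were DNA replication (0 of 28, median -0.04), G1/S regulators (0 of 17, -0.12), immediate early genes (0 of 20, -0.02), laminins and other matrix proteins (0 of 23, -0.07), proteasome (0 of 23, -0.07), p53 targets and apoptosis (0 of 16, 0.01), lysosome and cathepsins (0 of 17, -0.05), platelet (0 of 5, 0.27), parietal epithelium (0 of 8, -0.05) and erythroid genes (0 of 4, 0.45).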
